A study of Mus musculus with 2 samples.

Results

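Accessible regions lying between 1 and 10 kb from the start of a protein-coding gene of wildtype mice were described in the embryonic heart at E11.5. A shared region was a replicate 1 peak trimmed to the stretch that a replicate 2 peak covered by at least 1 bp. It was a member if it lay on an autosome and its midpoint was more than 1 kb and at most 10 kb from the nearest transcript start of any protein-coding gene, on either side. By this rule 23777 of 96639 autosomal shared regions (24.6%) were members, and the shared regions of all chromosomes together numbered 98924. Another 18955 shared regions lay within 1 kb of a start and are called promoter regions here, 38387 lay 10 to 100 kb away and 15520 lay beyond 100 kb.

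The hearts came from FVB embryos of genotype WT with 49 to 51 somites, without any mutant allele or treatment, and 2 replicates, each made from a pair of whole hearts, formed the only group. ATAC-seq, in which the transposase Tn5 inserts adapters into open DNA, was read as peak lists, 118027 peaks in replicate 1 and 114783 in replicate 2. No condition could be compared with another, so every value below is a description without a test. A whole heart mixes heart muscle, endocardium, epicardium, cushion mesenchyme and circulating blood, so fewer cells of a type and less accessible DNA per cell cannot be told apart. All 10 cardiomyocyte markers examined had a shared region within 1 kb of a start, as did all 7 markers of endothelium and endocardium. All 5 markers of epicardium, 5 of cushion mesenchyme and 5 of erythroid cells had one too. Over all autosomal protein-coding genes 14309 of 20807 (68.8%) had one, and of the markers of other tissues 2 of 9 did. The lists of other tissues used below are longer. In them, 14 of 18 neural and 8 of 15 skeletal muscle genes had an open promoter, a larger share than of these 9. The share was also larger for epidermal genes (4 of 12) but not for liver genes (2 of 12).

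Sequence next to a promoter holds proximal enhancers, alternative starts, and, on the transcribed side, the first intron, which in many genes carries regulatory elements. Enhancers are stretches of DNA where sequence-specific factors bind and raise transcription from a start that can be near or far. In the heart such factors include the zinc finger protein GATA4, the homeodomain protein NKX2-5, T-box proteins, MEF2, HAND proteins, TEAD and MEIS, whose preferred DNA words differ from the GC-rich words of promoters.

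The windows printed here are 200 bases of the GRCm38 (mm10) plus strand, written 5′ to 3′ and centred on the replicate 1 summit of the strongest member of a gene list, by the mean of both fold enrichments, so that strong members of different gene groups can be compared letter by letter. Capitals mark exact matches to any of 19 motif words, the letters of which are given with the motif results. Every region shown is summit-bearing in the sense given below. A region of *Ryr2* with a 32-base word found elsewhere in the genome and a region of *Bmp2* with UTR in the window were passed over for the next in line. The windows lie at chr13:83565774-83565973 (*Mef2c*, cardiac transcription factors), chr9:120011159-120011358 (*Xirp1*, sarcomere), chr9:32335857-32336056 (*Kcnj5*, ion channels), chr1:186663370-186663569 (*Tgfb2*, growth signals), chr4:115052666-115052865 (*Tal1*, endothelium) and chr2:132879627-132879826 (*Lrrn4*, epicardium). The next lie at chr15:56692332-56692531 (*Has2*, cushion), chr9:87740661-87740860 (*Tbx18*, sinus venosus), chr7:19409782-19409981 (*Ckm*, skeletal muscle) and chr4:133599732-133599931 (*Sfn*, epidermis).
Mef2c: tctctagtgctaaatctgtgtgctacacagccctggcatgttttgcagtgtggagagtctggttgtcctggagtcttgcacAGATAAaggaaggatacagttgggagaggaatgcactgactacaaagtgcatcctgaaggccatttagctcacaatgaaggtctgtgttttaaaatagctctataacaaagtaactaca
Xirp1: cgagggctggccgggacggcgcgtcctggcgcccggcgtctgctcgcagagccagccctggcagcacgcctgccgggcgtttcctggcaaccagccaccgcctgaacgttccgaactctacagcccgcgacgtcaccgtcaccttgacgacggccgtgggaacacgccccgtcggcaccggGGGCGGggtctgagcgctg
Kcnj5: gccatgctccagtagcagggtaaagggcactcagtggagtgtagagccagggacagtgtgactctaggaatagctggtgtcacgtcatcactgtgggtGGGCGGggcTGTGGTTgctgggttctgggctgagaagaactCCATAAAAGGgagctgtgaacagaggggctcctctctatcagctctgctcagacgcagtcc
Tgfb2: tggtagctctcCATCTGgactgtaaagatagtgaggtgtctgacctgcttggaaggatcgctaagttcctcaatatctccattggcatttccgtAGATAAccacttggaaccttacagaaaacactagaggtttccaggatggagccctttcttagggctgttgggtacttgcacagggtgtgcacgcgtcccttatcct
Tal1: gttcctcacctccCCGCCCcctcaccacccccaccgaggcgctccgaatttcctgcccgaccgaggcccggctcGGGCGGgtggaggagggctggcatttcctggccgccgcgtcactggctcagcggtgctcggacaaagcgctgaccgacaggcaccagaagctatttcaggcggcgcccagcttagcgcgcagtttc
Lrrn4: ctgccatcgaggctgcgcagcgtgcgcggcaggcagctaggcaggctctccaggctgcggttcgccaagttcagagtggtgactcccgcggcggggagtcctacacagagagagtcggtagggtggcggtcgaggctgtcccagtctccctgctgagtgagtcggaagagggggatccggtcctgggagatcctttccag
Has2: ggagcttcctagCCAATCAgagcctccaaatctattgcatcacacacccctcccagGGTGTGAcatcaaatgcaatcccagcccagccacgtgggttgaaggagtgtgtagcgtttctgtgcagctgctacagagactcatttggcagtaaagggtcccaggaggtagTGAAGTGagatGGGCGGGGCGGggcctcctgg
Tbx18: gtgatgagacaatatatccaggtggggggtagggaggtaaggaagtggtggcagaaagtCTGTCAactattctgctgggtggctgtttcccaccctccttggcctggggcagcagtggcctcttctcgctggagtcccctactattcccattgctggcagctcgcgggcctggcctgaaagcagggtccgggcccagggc
Ckm: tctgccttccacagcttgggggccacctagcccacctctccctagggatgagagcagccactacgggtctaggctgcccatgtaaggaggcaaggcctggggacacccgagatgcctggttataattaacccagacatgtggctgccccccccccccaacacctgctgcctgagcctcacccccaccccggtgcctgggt
Sfn: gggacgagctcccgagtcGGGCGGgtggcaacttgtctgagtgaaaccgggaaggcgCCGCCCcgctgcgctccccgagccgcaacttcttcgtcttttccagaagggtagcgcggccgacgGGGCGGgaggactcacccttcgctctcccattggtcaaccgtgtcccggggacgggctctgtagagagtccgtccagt
The *Mef2c* window, 43.5% GC and without a single CpG, held a GATA word. The *Xirp1* window stood at the other end, with 73.5% GC and 28 CpGs, and the *Sfn* and *Tal1* windows held 22 and 20 CpGs with 3 and 2 GC boxes. The *Kcnj5* window held an SRF CArG box, and the *Has2* window held a T-box, an NKX2 and an NFY word beside 2 GC boxes. No searched word was present in the windows of *Lrrn4* and *Ckm*.

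Members were denser than distal regions and sparser than promoter regions. Sequence 1 to 10 kb from a start made up 19.8% of the autosomal bases (475 Mb) and held 50.1 regions per Mb, against 201 per Mb within 1 kb and 29.5 per Mb beyond 10 kb, a ratio of 1.7 over the latter. Downstream of the start, where the transcript runs, 13412 members (56.4%) gave 54.7 regions per Mb, and upstream 10365 members (43.6%) gave 45.2 per Mb, a ratio of 1.21. The density was highest in the step from 1 to 2 kb, with 72.5 regions per Mb downstream and 54.8 upstream. It was 48.5 downstream and 42.0 upstream in the step from 9 to 10 kb, so most of the change lay in the first few kb.

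The slope was flatter without the members whose summit lay elsewhere. A trimmed region keeps the fold enrichment and summit of its parent peak, so that both can come from outside the region. The summit lay inside the region in 90.9% of members in replicate 1 and 89.4% in replicate 2. Both summits were inside and over 1 kb from every start, with no start held by the region, in 19749 members (83.1%), which are called summit-bearing below. Only 64.7% of members 1 to 2 kb downstream were summit-bearing, against 87.9% at 9 to 10 kb. Summit-bearing members alone gave 46.9 regions per Mb at 1 to 2 kb and 42.7 at 9 to 10 kb downstream, and 42.2 and 36.9 upstream. The plot of density by distance shows the steep arm near the start in all members and a flatter course in the summit-bearing ones.

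**Figure D1:**
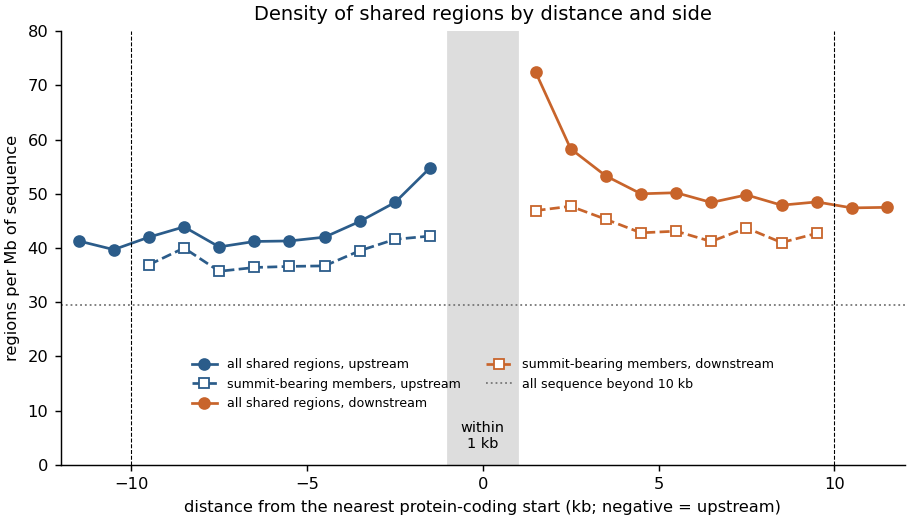
Regions per Mb of autosomal sequence (y axis) in 1 kb steps of distance from the nearest protein-coding start (x axis, kb, negative upstream), for all shared regions (filled points) and for summit-bearing members (open squares); the dotted line is the density of all sequence beyond 10 kb. All regions reach 72.5 per Mb at 1 to 2 kb downstream, and the summit-bearing ones 46.9.

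Most members lay in introns. The midpoint of 14777 members (62.1%) was in an intron of a protein-coding gene, 5454 (22.9%) lay outside genes, 1012 (4.26%) in coding exons and 895 (3.76%) in UTRs. Coding exons made up 3.14% of the sequence at this distance, and 68.4% of that sequence lay within protein-coding genes. The share of that sequence in introns alone was not computed, so the 62.1% cannot be read as a preference for introns. Over the 7 kinds of place, median fold enrichment was 5.98 to 6.52 in replicate 1 and 5.28 to 5.78 in replicate 2.

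Members were short and of middling GC content. Their median length was 361 bp (quartiles 245 and 535 bp), against 1030 bp for promoter regions, and the 200 bases at the summit had a median GC content of 51.0% against 63.0%. By the measure used for CpG islands (observed over expected CpG above 0.6 and GC above 50%), 1715 members (7.21%) were CpG-rich, against 58.8% of promoter regions. CpG-rich members were higher, with a median mean fold enrichment of 9.16 against 5.76 for the other members. A start of a long noncoding RNA gene or of any gene in a RefSeq table of the same build lay within 1 kb of 15.9% of CpG-rich members and of 4.01% of the others, which left 1442 CpG-rich members with no other annotated start nearby. The GC and CpG content are those of the bases at the replicate 1 summit, which can lie outside the member, and 1019 of the 1442 were summit-bearing as defined above. Of all members, 333 were shorter than 50 bp and 206 longer than 2 kb.

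The members were far lower than promoter regions and nearly level with distal ones. Fold enrichment is the authors' ratio of the read pileup at a peak's summit to the genome-wide background of that library. Its median over members was 5.98 in replicate 1 (quartiles 4.62 and 8.69) and 5.53 in replicate 2 (4.27 and 8.30). Promoter regions had a median of 16.8 in both replicates, and regions 10 to 100 kb away had 5.98 and 5.28. Of the peaks at this distance in replicate 1, 79.8% had a partner in replicate 2, and 79.7% of those in replicate 2 had one in replicate 1, against 93.0% and 92.5% of promoter peaks. The peaks without a partner were lower, at a median of 4.07 and 3.77, than the shared ones, at 5.98 and 5.28.

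Agreement between the replicates differed with where the summit lay. The definition itself favours this, because both parent summits of a summit-bearing member lie in the shared stretch. Over all 23777 members the Spearman rho between replicates was 0.661 and the SD of the log2 ratio was 0.63, whereas over the 19749 summit-bearing members rho was 0.799 and the SD 0.36. The other 4028 members had a rho of 0.194 and an SD of 1.29. In 553 of them replicate 1 was at least 2-fold higher and in 751 replicate 2 was, against 119 and 50 of the summit-bearing ones. These are correlations across regions of the same pair of libraries, so no p-value is given. One of the other members lay 1.92 kb downstream of *Myl7*, which encodes the atrial myosin light chain. Its fold enrichment was 16.6 in replicate 1, where the summit of the parent peak lay outside the region, and 3.02 in replicate 2.

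**Figure D2:**
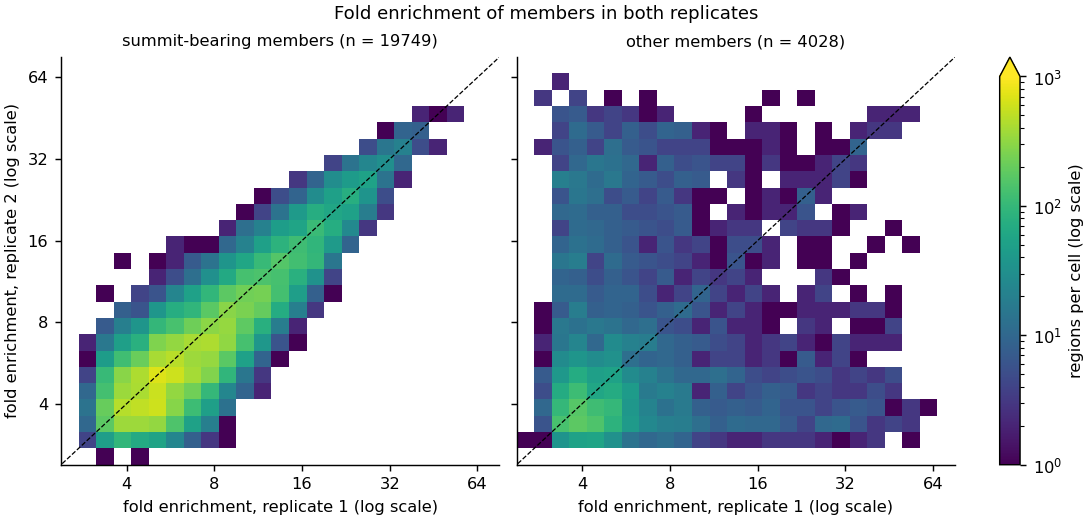
Fold enrichment in replicate 1 (x axis) and replicate 2 (y axis), both on log scales, for the 19749 summit-bearing members (left) and the 4028 other members (right); colour gives the number of regions per grid cell on a log scale and the dashed line is equality. Summit-bearing members follow the line (rho 0.799), and many of the others are high in a single replicate (rho 0.194).

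Of the genes of the 10 strongest members, *Zfpm1* alone was in any of the gene lists. The member with the highest mean fold enrichment lay 6.25 kb upstream of *Zfp869*, a zinc finger gene, at chr8:69716321-69717619, with 53.5 in replicate 1 and 50.0 in replicate 2, and a RefSeq start of the same gene lay within 1 kb of it. The next, 8.58 kb upstream of the forkhead gene *Foxj2*, had 51.1 and 49.8 and lay at the start of the noncoding gene *Gm5112*. *Rassf7*, with a member 4.08 kb downstream, had 48.1 and 46.0, and no other start lay near that member. The other 7 of the 10 strongest, at *B430305J03Rik*, *Ell2*, *Fam210b*, *Zfpm1*, *Irs2*, *Rbm38* and *Alad*, were not summit-bearing and measured 3540 to 17297 bp. The longest, 17297 bp at *Rbm38*, an RNA-binding protein gene, had 43.2 and 43.7. *Alad*, an enzyme of haem synthesis, had 42.6 and 44.0.

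Among summit-bearing members, a ranking made after the values were seen, the next after *Rassf7* lay 2.28 kb upstream of *Ptch1*, the Hedgehog receptor, with 42.1 and 44.2 at the start of the noncoding gene *A930032L01Rik*. *Ctdsp1*, *Igf2bp3*, *Gm20479*, *Angptl6*, *Nr1d1* and *Clec11a* completed the 10 strongest, with mean fold enrichments of 43.2 to 40.6. Of the 100 strongest summit-bearing members, 47 were CpG-rich and 17 had another annotated start within 1 kb, against 6.09% and 4.39% of all summit-bearing members. The CpG-rich share was 3.34% in the lowest quintile of mean fold enrichment and 13.1% in the highest.

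A gene was given the members that lay nearest to a start of its own. At least 1 member belonged to 9540 of 20807 autosomal protein-coding genes (45.8%), and 188 genes had 10 or more. With a q-value of at most 1e-10 in both replicates the share of genes was 26.9%. A shared region lay within 1 kb of a start in 14309 genes (68.8%). Of these genes with an open promoter 56.9% had a member, against 21.6% of the genes without, and open-promoter genes held 90.6% of all members. The density was 59.0 members per Mb near open promoters and 20.5 per Mb near the others.

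Genes of the heart lists had members more often than the 45.8% of all genes, as did several lists of other tissues. The lists were chosen with earlier results of these data known, so their shares are not independent of those results. A member was found for 22 of 24 cardiac transcription factor genes (91.7%), 21 of 25 sarcomere genes (84.0%), 21 of 23 genes of ion channels, calcium handling and junctions (91.3%), 15 of 18 hormone and growth signal genes (83.3%), and all 12 cushion and valve genes. Endothelium and endocardium had 19 of 24 (79.2%), epicardium 8 of 12 (66.7%) and the sinus venosus and pacemaker list 6 of 8. Erythroid and blood genes had 14 of 18 (77.8%), neural genes 13 of 18 (72.2%) and housekeeping genes 12 of 18 (66.7%). Skeletal muscle (7 of 15), liver (5 of 12) and epidermis (6 of 12) were close to the share of all genes. Because genes with many starts or few neighbours have more sequence at this distance, the density is the fairer measure. It was 206 members per Mb for erythroid and blood genes, 164 for sarcomere, 152 for cushion and 139 for cardiac transcription factors, against 50.1 for all genes. Without *Zfpm1*, the gene with the most members, erythroid and blood genes had 163 per Mb, and sarcomere genes without *Tnnt2* had 154. The other heart lists, at 102 for endothelium, 95.4 for sinus venosus, 90.5 for epicardium, 89.0 for hormones and growth signals and 87.5 for ion channels, were close to neural genes with 92.8 and housekeeping genes with 87.2. Skeletal muscle had 67.8, epidermis 44.4 and liver 29.1. Open promoters were present in all of the cardiac transcription factor and sarcomere genes, in 77.8% of neural, 53.3% of skeletal muscle and 16.7% of liver genes, against 68.8% of all genes, and their part in these shares was not tested.

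**Figure D3:**
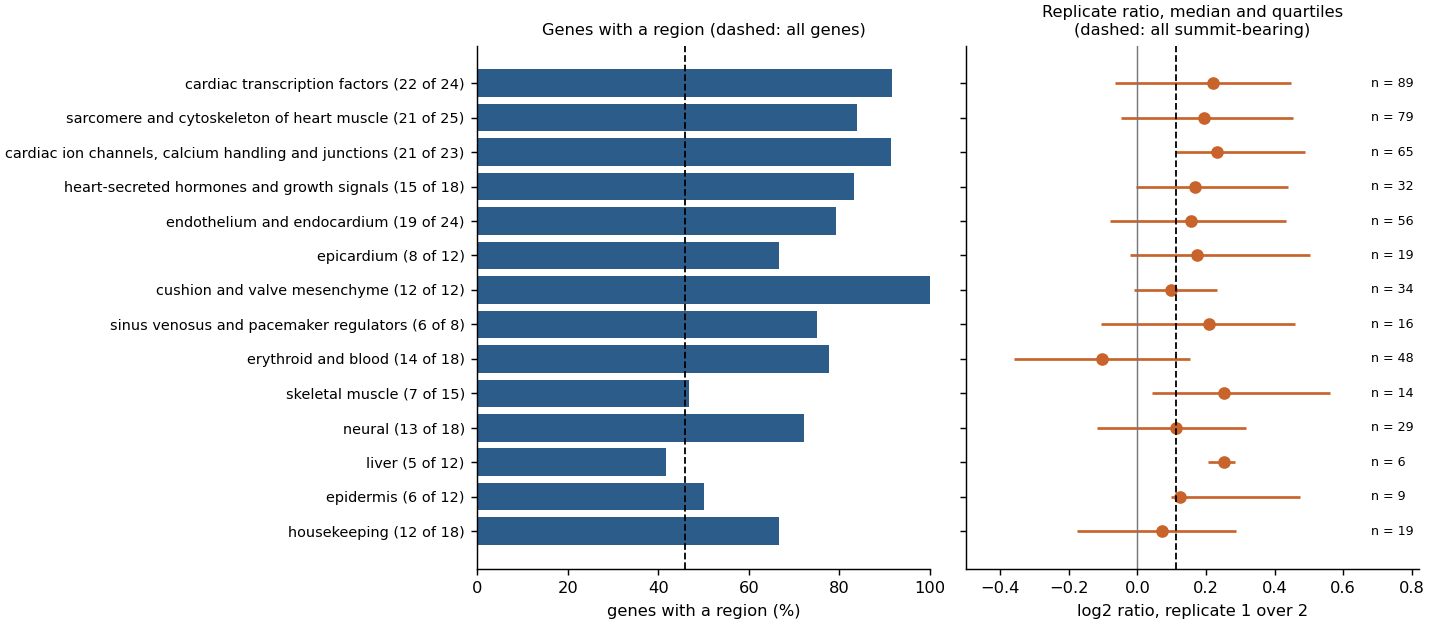
Left, percent of the genes of each list with at least 1 member (x axis), with the number of genes in parentheses and a dashed line at the 45.8% of all genes. Right, log2 of the ratio of replicate 1 to replicate 2 fold enrichment (x axis) over the summit-bearing members of each list, as median (point) and quartiles (line), with the median of all 19749 as the dashed line; erythroid and blood is the list with a median below 0.

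Genes with many members were *Grb10* with 37, *Tns1* with 29, *Zeb2* with 27, *Ddc* and *Iqsec1* with 26 each, *Ank1* and *Rgs3* with 24 each, and *Zfpm1* and *Chd7* with 23 each. *Tns1*, *Iqsec1*, *Rgs3* and *Ank1* had 103 to 134 kb of sequence within the bounds, against a mean of 22.8 kb over all genes. *Grb10*, an imprinted inhibitor of growth factor signalling, and *Ddc*, the decarboxylase that makes dopamine and serotonin, are neighbours on chromosome 11. *Grb10* had 69.5 kb of sequence within the bounds and *Ddc* 71.4 kb, and their strongest members had mean fold enrichments of 18.8 and 25.6. *Zeb2*, a zinc finger repressor, reached its count in 55.9 kb and *Zfpm1*, which encodes the GATA cofactor FOG1, in 54.0 kb. *Ank1*, the ankyrin of the red cell membrane, had a strongest member of 27.6.

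The 30 heart genes looked at singly had 144 members, 83 upstream and 61 downstream of the nearest start, and 109 of the 144 were summit-bearing. Over all members 43.6% lay upstream and 83.1% were summit-bearing. *Kdr* and *Atp2a2* had none. Among transcription factors, *Gata4* had 11 members and *Mef2c* 10, the most of their list. The *Gata4* members were low, with mean fold enrichments of 3.54 to 12.8. *Mef2c* had the highest summit-bearing member of the list, 6.24 kb upstream of a start and within an intron, at chr13:83565612-83566598, with 29.1 in replicate 1 and 25.1 in replicate 2. Another of its members, 5.12 kb upstream of a start, had 25.5 and 24.4. *Hand2*, which encodes a bHLH factor of the right ventricle and outflow tract, had 6 members, and the strongest, 6.20 kb downstream and 4936 bp long, had 22.3 and 23.4. *Myocd*, the coactivator of SRF, had 6 members, all of them summit-bearing, led by an intronic one 4.13 kb upstream of a start with 20.1 and 16.8. *Tbx20*, a T-box regulator of heart muscle growth, had 7 members, of which the strongest had 13.6 and 13.3.

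Other regulators had little here. *Nkx2-5* had a single member, 5.71 kb upstream, with 8.42 and 4.78, and *Tbx5* had 3, with mean fold enrichments of 3.96 to 5.49. *Hand1* and *Tbx3* had an open promoter and no member.

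Sarcomere genes had many low members and a few high ones. *Tnnt2*, cardiac troponin T, had 10 members in 19.8 kb, but 5 were not summit-bearing. The 5 that were had 4.35 to 7.88 in replicate 1, against 3.77 to 6.79 in replicate 2. *Tpm1* and *Myom1* followed with 9 each. *Myh7*, the slow myosin heavy chain, had 6 members. The strongest of these, 2.48 kb upstream, had 18.2 and 12.8, and another, 9.83 kb upstream, had 16.8 and 11.6. *Myh6*, the atrial myosin heavy chain, had 5 summit-bearing members with mean fold enrichments of 3.27 to 4.58. A sixth member, not summit-bearing and within 1 kb of a start of the noncoding gene *Mhrt*, had 13.9 and 6.54. *Actc1*, cardiac actin, had a member 4.09 kb upstream with 20.4 and 16.8, and *Ldb3*, a Z-disc protein gene, had a member 3.03 kb downstream with 26.1 and 21.9. *Ttn*, the gene of the giant spring protein titin, had 5 members although 103 kb of its sequence lay within the bounds, none above a mean of 5.63. The highest value of the list was that of the CpG-rich member 7.05 kb downstream of *Xirp1*, an actin-binding protein of intercalated discs, with 35.9 and 32.2.

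Calcium handling and conduction genes ranged from no member to 9. *Kcnh2*, a potassium channel, had 9 members and *Ryr2*, the calcium release channel, 8. The strongest *Ryr2* member lay in an intron, 7.73 kb upstream of a start, with 23.1 and 23.4. *Pln*, the inhibitor of the calcium pump, had 7 members in 14.1 kb, led by 11.7 and 10.8 at 4.76 kb upstream. *Kcnj5*, a subunit of the atrial potassium channel, had the member 8.26 kb downstream whose window is printed above, with 20.4 and 20.1. *Hcn4*, the pacemaker channel, had a single member, 9.43 kb upstream, with 5.16 and 3.52, and *Gja5*, the connexin of fast conduction, had 2 with mean fold enrichments of 4.97 and 5.64. Of the hormone and growth signal genes, *Igf2* had 7 members and *Jag1* 5. *Nppa* had 4 members, all downstream, and *Nppb* a single one 2.50 kb downstream with 8.69 and 6.54. *Bmp10*, a ligand of the trabeculae, had 3 members, all upstream and all with a GATA word, the highest 4.75 kb away with 11.1 and 8.55. A GATA word was present in 45 of the 144 members of the 30 heart genes and in none of the 11 of *Gata4*, against 27.4% of all members.

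**Figure D4:**
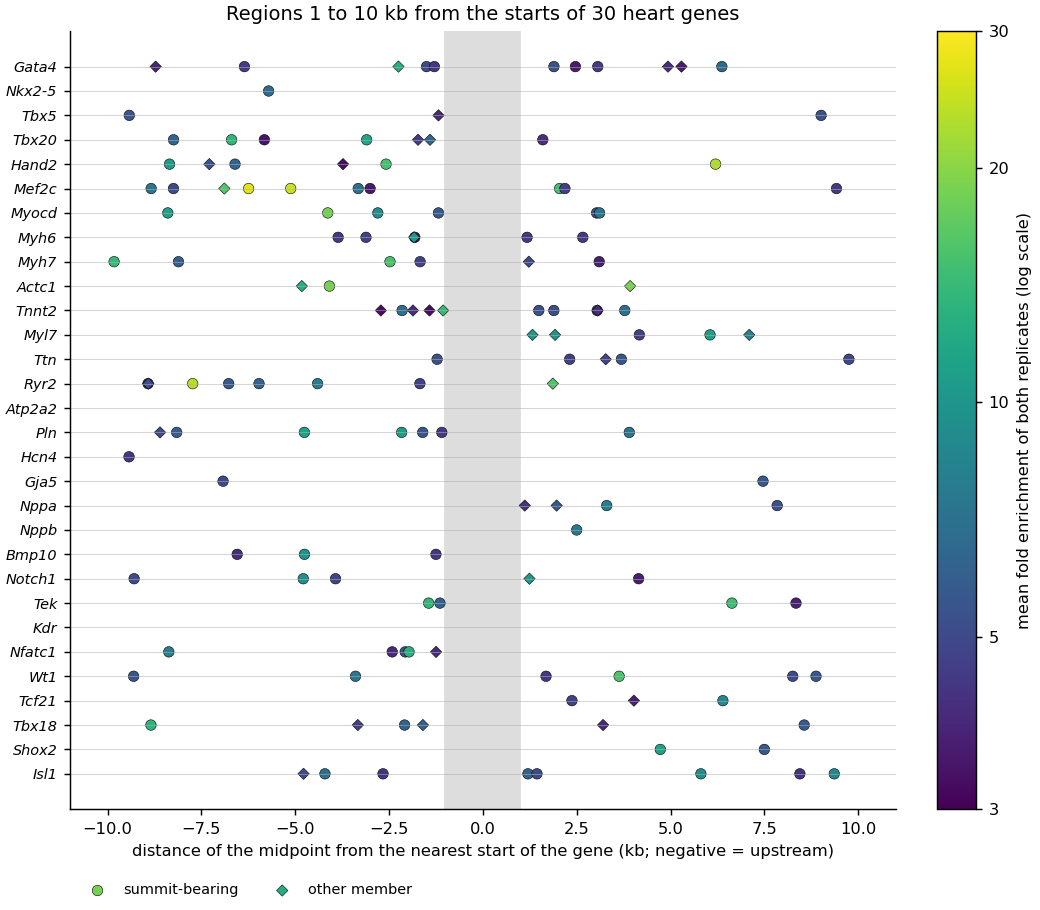
Members of 30 heart genes placed by the distance of their midpoint from the nearest start (x axis, kb, negative upstream), with a row for each gene; colour is the mean fold enrichment of both replicates on a log scale, circles are summit-bearing members and diamonds the others. *Gata4* has 11 points and *Kdr* and *Atp2a2* have none, and the 2 brightest circles belong to *Mef2c*.

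In the endothelial and endocardial list, *Egfl7* had 8 members and *Tal1*, a bHLH factor of blood and endothelium, had 7. The strongest *Tal1* members were CpG-rich and lay 3.68 kb upstream, with 31.5 and 24.6, and 4.09 kb downstream, with 28.8 and 26.1. *Tek*, the angiopoietin receptor, had 4, led by an intronic member 6.63 kb downstream with 15.2 and 14.3. In the epicardial list *Wt1* had 6 members, and the strongest, in an intron 3.63 kb downstream, had 16.3 and 14.8. *Tbx18*, shared by the epicardial and sinus venosus lists, had 6, led by one 8.85 kb upstream with 12.5 and 13.8, which lay within 1 kb of a start of the noncoding gene *Gm37374*. *Isl1*, a LIM factor of the second heart field and pacemaker, had 8 members, none above a mean of 9.26. *Shox2*, a regulator of the sinus node, had 2 downstream members, at 4.73 kb with 10.3 and 12.3 and at 7.50 kb with 6.52 and 4.78. In the cushion list *Vcan* and *Prrx1* had 6 members each, and the highest summit-bearing member was at *Has2*, which makes hyaluronan, with 22.0 and 18.6, within 1 kb of a start of the noncoding gene *Has2os*.

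*Zfpm1* gave 23 of the 69 members of erythroid and blood genes. *Slc4a1*, the red cell anion exchanger, had 11, the strongest of which lay 9.78 kb upstream with 25.8 and 22.9. *Klf1*, the erythroid regulator, had a member 1.13 kb downstream with 21.7 and 26.6. A member 8.12 kb upstream of the embryonic globin gene *Hbb-y* had 28.0 and 28.4. The genes *Hba-a1* and *Hba-a2* are near-identical copies with 4 and 5 members, and *Hbb-bt* and *Hbb-bs* are close copies with 5 and 1. These counts are uncertain, since reads of low mapping quality were removed. *Runx1*, a regulator of blood stem cell formation, had 3 members. Of white cell genes, *Spi1*, a myeloid regulator, had an open promoter and 2 members, the stronger at 8.15 and 7.29. *Ptprc* and *Csf1r* had a member each, at 5.70 and 5.03 and at 4.89 and 4.78, and *Itgam* and *Cd3e* had neither a member nor an open promoter.

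Lists of other tissues also held strong members. A member at *Sfn*, among epidermal genes, had 28.5 and 26.1, and its window was CpG-rich. In the neural list *Pax6* had 8 members and *Neurog2* 7. In the skeletal list *Myh3* had 4 and *Tnnt3* 3. *Ttr* had 2 in the liver list, *Trp63* 3 and *Perp* 2 in the epidermal list, and *Pabpc1* 5 and *Actb* 3 in the housekeeping list.

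Motif words were counted as exact matches on both strands in the 200 bases at the replicate 1 summit. The GATA word was searched as AGATAA or as the alternative spelling TGATAA. The word of the T-box factors was GGTGTGA, and MEF2, a MADS-box factor of muscle, was searched as TATTTTTA. TEAD, the partner of YAP, was searched as ACATTCC, and the homeodomain group NKX2 as TNAAGTG. The E-box preferred by HAND was CATCTG, and the word of MEIS was TGACAG. The ETS word, common in promoters and endothelial enhancers, was CCGGAAG, that of SOX was ACAATGG, that of FOX was TGTTTAC and that of RUNX was TGTGGTT. The stress-responsive factor AP-1 was searched as TGANTCA. Of promoter words, the GC box was GGGCGG, NRF1 was CGCATGCG, CRE was TGACGTCA, NFY was CCAATCA and YY1 was AAGATGGC. The longer motifs of SRF (the CArG box) and CTCF are given by name. The HAND word can lie inside some spellings of the CTCF motif, and no other of these words can lie inside another. A match describes the sequence and is not evidence of binding.

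Members resembled distal regions more than promoters in these words, at levels in between for most. GATA was the most common of them and was present in 6512 members (27.4%), against 9.21% of promoter regions, 30.2% of regions 10 to 100 kb away, 36.9% beyond 100 kb and 26.5% of all autosomal shared regions. The same letters in reverse order, a word of equal base composition, were present in 11.8% of members. In 31396 RefSeq promoters, cut to the same length, GATA was present in 13.1%. MEIS was present in 20.7% of members and 12.4% of promoter regions, HAND E-box in 16.0% and 8.38%, AP-1 in 9.09% and 3.93%, TEAD in 5.13% and 2.27%, and MEF2 in 2.62% and 0.944%. All of these were lower in members than beyond 100 kb, where AP-1 had 9.47% and GATA 36.9%. NKX2 was present in 2740 members, RUNX in 4.02%, T-box in 3.50%, FOX in 2.71%, NFY in 2.54%, SOX in 2.44% and ETS in 1.85%, while ETS was present in 8.81% of promoter regions. SRF CArG was present in 267 members, YY1 in 0.866%, CRE in 0.374% and NRF1 in 0.160%. The T-box, ETS, FOX and CRE words were no more common than their own letters reversed, which were present in 5.45%, 3.68%, 2.91% and 0.694%. The GC box was present in 10.4% of members, 47.1% of promoter regions and 4.17% of regions beyond 100 kb, and its letters reversed were as common, in 10.4%, 47.5% and 4.09%. Reversed, the ETS and CRE words lose their CpG, and a stretch of GGGCGGG holds the GC box in both orders. For these words the reversed share therefore cannot serve as a background.

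CTCF, the factor of chromatin loops and insulators, had its highest share among members. Its word was present in 823 of them (3.46%), against 0.976% of promoter regions, 2.90% at 10 to 100 kb and 1.42% beyond 100 kb, and the same letters reversed in 0.0294%. Of the 19 motifs it was also the most centred, with 0.222 matches per kb within 50 bp of the replicate 1 summit and 0.0061 at 400 to 500 bp, a ratio of 36.4, and a ratio of 20.2 at replicate 2 summits. By quintiles of mean fold enrichment of the summit-bearing members, CTCF was at 3.32% in the lowest, 5.24% in the middle and 2.05% in the highest, while GATA was at 26.0% in the lowest and the middle and at 35.1% in the highest. In 1 kb steps of distance the GATA share of these members lay between 26.1% and 31.2%, with no steady course.

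**Figure D5:**
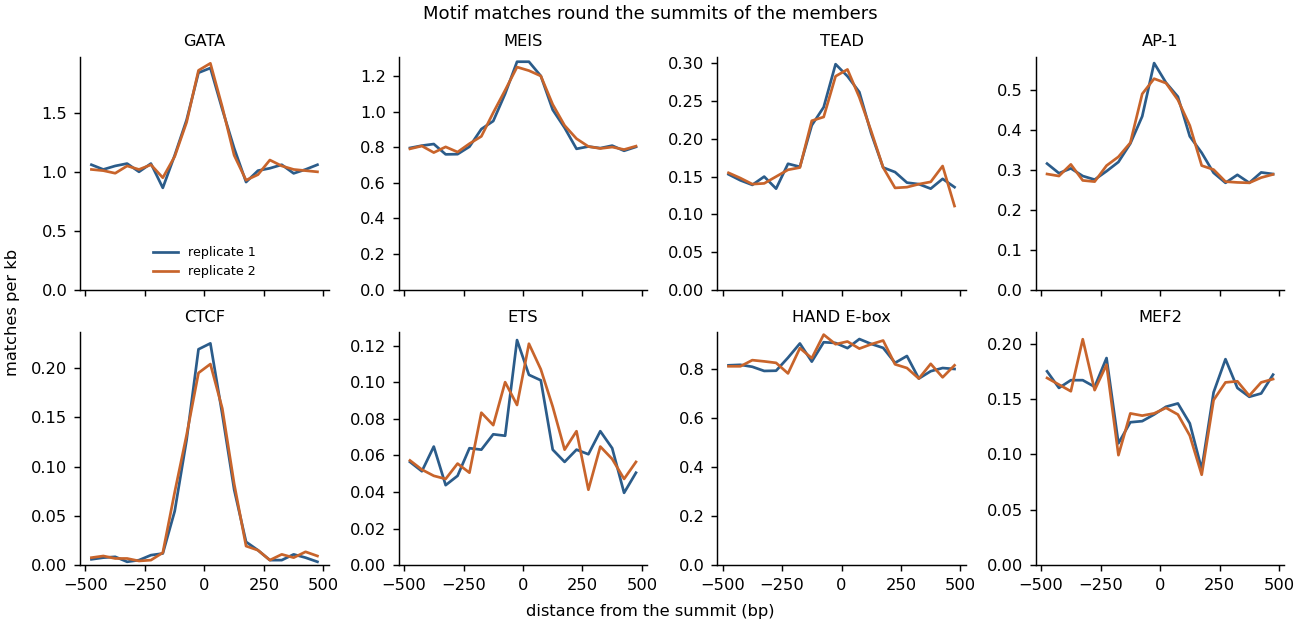
Matches per kb (y axis) of 8 motif words in steps of 50 bp by distance from the summit (x axis, bp), over all members, for replicate 1 and replicate 2 summits. GATA reaches 1.88 per kb in replicate 1 and CTCF falls to near 0 away from the centre, while HAND E-box is almost flat and MEF2 is lower at the centre than outside.

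The heart words differed in how far they were centred. GATA had 1.86 matches per kb within 50 bp of the replicate 1 summit and 1.04 at 400 to 500 bp, a ratio of 1.79 (1.87 in replicate 2). TEAD had ratios of 2.00 and 1.99, AP-1 1.82 and 1.83, MEIS 1.61 and 1.55, and ETS 2.30 and 1.96. NKX2 and HAND E-box, with 1.11 in replicate 1, were nearly flat. MEF2 was less frequent within 50 bp of the summit than at 400 to 500 bp, with ratios of 0.843 and 0.839. Within 50 bp it had 0.14 matches per kb in both replicates. Its lowest step, 150 to 200 bp after the summit, had 0.0866 per kb in replicate 1 and 0.0816 in replicate 2. GC content moved along, at 52.0% within 50 bp and 46.3% at 400 to 500 bp, and its part in these ratios was not tested.

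The ratio of the replicates differed between gene lists and also between distance classes. The median log2 ratio of replicate 1 to replicate 2 was 0.11 over all 19749 summit-bearing members, and 65.7% of them were higher in replicate 1. Over promoter regions, summit-bearing or not, the median was 0.04, with 58.5% higher in replicate 1. Over regions beyond 10 kb it was 0.18, with 70.2%. Among summit-bearing members the median was 0.22 for cardiac transcription factors (64 of 89 members higher in replicate 1). It was 0.19 for sarcomere genes (57 of 79) and 0.23 for ion channels and calcium handling (51 of 65). The medians of the other lists lay between 0.07 for housekeeping genes and 0.25 for liver and skeletal muscle genes, with one exception. Liver and skeletal muscle genes had only 6 and 14 such members. Erythroid and blood genes went below 0, at -0.10, with 18 of 48 members higher in replicate 1. Without *Zfpm1*, which gave the most members, the median was -0.11 with 13 of 33. The interquartile ranges of these lists overlapped, from -0.36 to 0.15 for blood and from -0.05 to 0.45 for sarcomere.

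Single genes varied within their lists. All 5 summit-bearing members of *Myh7* were higher in replicate 1, by 0.51 to 0.60 on the log2 scale, as were all 5 of *Myh6*, all 6 of *Myocd* and all 6 of *Pln*. Other muscle genes were near 0, with medians of -0.069 for *Tnni1*, -0.045 for *Nebl* and 0.047 for *Ryr2*. Of the blood genes, *Slc4a1* had a median of -0.27, with 2 of 5 members higher in replicate 1, *Zfpm1* had -0.065 with 5 of 15 and *Hbb-y* had 0.0061 with 3 of 5. Of the 825 genes with 5 or more summit-bearing members, *Abcb10*, a mitochondrial transporter gene, was among the 10 that leaned most to replicate 2, at a median of -0.39 over 7 members, and *Wnt11* among the 10 that leaned most to replicate 1, at 0.61 over 5. *Tpm1* had -0.28 and *Hopx* -0.26, both against the median of their lists.

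Some motif shares differed along the ratio. From the quintile of summit-bearing members leaning most to replicate 2 to the one leaning most to replicate 1, MEF2 was present in 1.59%, 2.20%, 2.76%, 3.39% and 3.82%, and MEIS in 18.8%, 19.7%, 20.4%, 22.9% and 25.0%. TEAD had 3.70% in the first, 5.50% to 5.65% in the middle ones and 6.66% in the last. GATA had no steady course, with 35.1% in the first and 27.4%, 25.8%, 26.1% and 28.0% in the rest. CTCF had 4.48% to 4.81% in the first 3, then 3.22% and 2.00%. Median GC content was 50.5% and 51.0% in the first and last quintiles and median mean fold enrichment 6.12 and 5.80. With a single library for each pair of hearts, the hearts and the library cannot be told apart, and nothing in the labels says whether the pairs came from separate litters.

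At the bounds of the rule the values on both sides overlapped. The 5 members just beyond 1 kb, at *Krt19*, *Hid1*, *A530016L24Rik*, *Siah3* and *Pax8*, had mean fold enrichments between those of *Hid1* (4.62 in replicate 1 and 4.02 in replicate 2) and *A530016L24Rik* (12.5 and 9.55). The 5 regions just within it, at *Hhat*, *Otub2*, *Dab2ip*, *Chrm5* and *C1qtnf7*, had 3.80 to 28.5 in replicate 1 and 4.02 to 34.7 in replicate 2. The 5 members just within 10 kb, at *Ppara*, *Upk1b*, *Wnt10a*, *Mmp16* and *Atxn2*, had 5.70 to 11.1 in replicate 1 and 3.02 to 12.8 in replicate 2. The 5 regions just beyond, at *Twsg1*, *Zic4*, *Crb2*, *S1pr3* and *Tspan12*, had 2.99 to 10.3 and 3.77 to 11.3.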

How the data were processed

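Accessible chromatin was profiled in 2 replicates of wildtype E11.5 hearts, each a pair of FVB hearts, which form a single group. The authors used Trim Galore 0.6.6 with Cutadapt for trimming, Bowtie2 2.4.2 for mapping to GRCm38/mm10, SAMtools 1.12 for the removal of duplicate and poorly mapped reads, and MACS2, without a local background, for the peaks of each replicate (submitters' processing notes and the study's methods). In the deposited lists, fold enrichment is a ratio of the summit pileup to the genome-wide background, −log10 p and −log10 q belong to the summit, and the score is 10 times the −log10 q value. Removal of poorly mapped reads underrepresents repeated sequence. Read totals are not part of these lists, so depth is unknown and no counting interval was computed.

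Replicate 1 peaks were trimmed to their overlap with replicate 2 (1 bp or more), merged where they touched, given the highest fold enrichment of their parent peaks, and assigned by midpoint to the nearest transcript start of a protein-coding gene in GENCODE M21. Densities used autosomal bases at the same distance from their nearest start. Coordinates are 1-based. Long noncoding starts came from GENCODE M21 and other starts and promoters from RefSeq on GRCm38.p6. The lists were used as deposited, with no further p-value limit, and their weakest p-values are stricter than the limit given in the study's methods, with largest q-values of 0.0194 in replicate 1 and 0.0425 in replicate 2. With a single group no test was run. The members, the gene lists and the motif words were chosen with earlier results of these data known. Text names the 10 highest members, the 10 genes with the most members, the leading genes of each of 14 lists (2, or all that tied), the members of 30 heart genes and the 5 regions on each side of each bound. Some items that this rule names, and some windows, are not reported here. Summit-bearing members, the genes leaning to a replicate and the exclusion of windows whose summit lay outside the region were chosen after the data were seen. Alternatives were limits on p and q, a reciprocal overlap of 50%, whole peaks, each replicate alone, distance from the edge, basic transcripts, a lower bound of 2 kb, assignment to every gene in reach and other motif windows. The overlap, distance and motif code was tested on simulated data. Python 3.11.15, NumPy 2.4.6, pandas 2.3.3, Numba 0.67.0 and Matplotlib 3.10.9 were used.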

Additional observations from a re-analysis of the deposited data

How the results depend on the processing

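No paired analysis was possible because there is a single group of samples. The number of members changed by less than 1.5 times under every alternative except a q-value of at most 1e-10 in both replicates, which left 9222, and was 28123 and 28508 in single replicates. Other values were set against the SD between single replicates, which was small, so minor shifts are given too. The cause was not tested.

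The downstream over upstream density ratio stayed above 1, at 1.19 with a p-value of at most 1e-05 and with whole peaks, 1.14 with the q-value limit, with reciprocal overlap and in summit-bearing members, 1.19 to 1.20 in single replicates, 1.20 from the edge, 1.33 with basic transcripts and 1.18 from 2 kb. Median mean fold enrichment was 9.42 with the q-value limit and 4.78 to 5.16 in single replicates. The share of replicate 1 peaks with a partner was 77.0%, 75.7% and 67.6% with the p-value, q-value and reciprocal settings, and a single replicate cannot give it. The intronic share was 59.4% with the q-value limit, 61.4% with reciprocal overlap, 55.2% with basic transcripts and 62.2% to 63.2% in single replicates. Genes with a member were 44.2%, 26.9% and 42.9% under the p-value, q-value and reciprocal settings, 45.5% with whole peaks, 50.2% to 50.6% in single replicates, 44.7% from the edge, 42.1% with basic transcripts, 40.1% from 2 kb, 52.8% when every gene in reach counted and 43.3% for summit-bearing members. The GATA share was 30.5% with the q-value limit, 28.1% with reciprocal overlap, 27.3% on replicate 2 summits, 16.2% in 100 bp, 34.9% in 300 bp, 26.0% on midpoints, 28.5% in summit-bearing members and 26.8% to 26.9% in single replicates. The summit-bearing alternative and the single-replicate GATA shares were chosen after seeing the data, as was leaving out the gene with the most members of each list, which took the density of erythroid and blood genes from 206 to 163 members per Mb and that of sinus venosus genes from 95.4 to 66.5.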
